A study of Mus musculus with 45 samples.

Results

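Transcripts of the mitochondrial ribosomal protein genes were examined in small intestinal tuft cells of mice on a low-fat reference diet (RFD) or a high-fat diet (HFD). The members are the protein-coding genes whose mouse symbol starts with Mrpl or Mrps followed by a number. Each was included by this name alone, but the family was chosen with earlier results of these data known. There were 78 members among the 47729 genes of the count tables. A gene was tested if 6 or more of the 45 libraries held over 5 reads of it. All 78 met this and were therefore among the 14020 genes tested. Another 5 genes with such symbols are processed pseudogenes and were not counted as members. The mice were male C57BL/6J animals that arrived at 5 weeks of age and were housed at thermoneutrality, and no gene was altered in any group. RFD (D12450J) contained 10% and HFD (D12492) 60% of energy as fat. Per the paper, tuft cells were sorted as live EpCAM+ CD45+ Siglec-F+ epithelial cells and sequenced in bulk, 1 library per mouse. Elsewhere it states that cells with CD45 were left out, so the CD45 status of the sorted cells is unclear. The libraries form 2 sets named STF and LTF, with 11 mice on RFD and 11 on HFD in STF, and 11 on RFD and 12 on HFD in LTF. The labels give 9 weeks of feeding for all 45 libraries, whereas the study fed mice for 9 or 22 weeks, so the sets are called here by their names. Set and feeding time cannot be told apart.

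Mitochondria keep a small genome of their own and translate its mRNAs on a dedicated ribosome, the mitoribosome. Its RNAs are transcribed from mitochondrial DNA, whereas its proteins are encoded in the nucleus, made in the cytosol and imported. The mRNAs it translates encode core subunits of the respiratory chain and of ATP synthase. Some mitoribosomal proteins are homologs of bacterial ribosomal proteins and others occur only in mitochondria.

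The promoters of 69 of the 78 members were found in the RefSeq promoter table of build GRCm38.p6. Genes of this kind are known to carry recognition sequences for the nuclear factors NRF1, GABPA and YY1, so 3 strings were searched on both strands from 250 bases before to 50 bases after the start: GCGCA and GCGC with any 1 base between them for NRF1, CCGGAAG for GABPA and AAGATGGCG for YY1. A YY1 match can begin within a GABPA match, because the last 3 letters of one are the first 3 of the other. The 150 bases before the start, 5′ to 3′, are shown for the 4 members that passed the test in STF (Mrpl3, Mrpl12, Mrpl16 and Mrps9), for the member with the smallest p in both sets together (Mrps14) and for 1 member with a YY1 match in this stretch (Mrpl36). Capitals mark matches, and the match of Mrps9 runs on past the start.

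Mrpl3 (chr9:105053118-105053267, plus strand): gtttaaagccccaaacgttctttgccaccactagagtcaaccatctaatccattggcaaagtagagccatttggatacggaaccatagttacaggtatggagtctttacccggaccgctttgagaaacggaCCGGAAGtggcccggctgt
Mrpl12 (chr11:120484487-120484636, plus strand): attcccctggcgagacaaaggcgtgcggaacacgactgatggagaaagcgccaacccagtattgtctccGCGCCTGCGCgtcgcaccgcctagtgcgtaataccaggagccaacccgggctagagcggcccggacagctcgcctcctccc
Mrpl16 (chr19:11770265-11770414, plus strand): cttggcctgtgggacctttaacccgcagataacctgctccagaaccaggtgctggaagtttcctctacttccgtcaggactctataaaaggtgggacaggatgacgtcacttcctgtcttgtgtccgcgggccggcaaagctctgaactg
Mrps9 (chr1:42851083-42851232, plus strand): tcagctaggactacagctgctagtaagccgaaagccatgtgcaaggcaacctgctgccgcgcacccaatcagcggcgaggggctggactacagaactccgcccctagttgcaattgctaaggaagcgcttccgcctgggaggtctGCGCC
Mrps14 (chr1:160195065-160195214, plus strand): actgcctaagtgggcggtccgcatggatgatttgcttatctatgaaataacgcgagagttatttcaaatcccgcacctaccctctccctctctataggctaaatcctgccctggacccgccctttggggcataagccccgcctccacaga
Mrpl36 (chr13:73330859-73331008, plus strand): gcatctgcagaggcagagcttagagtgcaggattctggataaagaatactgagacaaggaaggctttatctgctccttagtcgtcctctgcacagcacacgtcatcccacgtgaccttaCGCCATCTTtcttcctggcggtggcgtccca

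Mrpl12 and Mrps9 thus held an NRF1 match, Mrpl3 a GABPA match and Mrpl36 a YY1 match, and neither Mrpl16 nor Mrps14 held any of the 3 strings in its 300-base window. Among the members, 18.8% of promoters had an NRF1 match, 36.2% a GABPA match and 11.6% a YY1 match. The shares over the 9893 promoters of protein-coding genes tested were 10.3%, 18.3% and 3.23%, and over all 27025 promoters 4.78%, 9.12% and 1.49%. Among 55 promoters of cytosolic ribosomal protein genes they were 5.45%, 38.2% and 5.45%, so the GABPA share of the members was not above that of this family. A match is a run of letters and was not examined for binding.

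Total reads per library ranged from 189340 to 4690213, and the group medians lay between 1348669 and 1813398. Of the 15 tuft markers, Il25, Pou2f3, Gnat3 and Gng13 had no read in at least 1 library. The others, Dclk1, Trpm5 and Siglecf among them, had reads in all 45 libraries. The libraries were not pure: with tuft markers set against markers of 7 other cell types and states, 8 of 45 libraries had a mean tuft marker level below that of the others. These were 5 STF HFD, 1 STF RFD, 1 LTF HFD and 1 LTF RFD libraries. LTF RFD mouse 3 stood apart with 8580 genes with a read, the fewest of all, and 18 of the 78 members had no read in it. By mouse number the libraries form 3 series (1 to 8, multiples of 10, and other numbers from 21 to 64, with 2 mice in none), each holding both diets in both sets. They may mark repeated experiments, days of termination or cages. Per the paper, mice shared cages, and on each of 3 days a cage of every group was terminated. The labels name neither cage nor day, so the tests had no term for them and treated mice as independent. Values within the series reuse the same libraries and are given as a description.

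The members were expressed at moderate levels. Per transcript length, the median deposited TPM over the 45 libraries had a median of 48.5 over the 78 members, against 4.16 over all 14020 genes tested and 289 over 75 cytosolic ribosomal protein genes. In reads, a library held a median of 9 to 177 reads of a member (median of the 78, 67). No read was found in at least 1 library for 23 of the 78. As a measure of spread between mice, the median biological coefficient of variation of the members was 0.397 in STF and 0.405 in LTF. It was 0.728 and 0.629 over all genes tested, whose levels were lower. For the 75 cytosolic ribosomal protein genes, with higher levels, it was 0.351 and 0.351. The part of expression level in these differences was not tested.

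The 5 members with the highest median TPM were the small subunit gene Mrps21 with 282, and the large subunit genes Mrpl33 with 258, Mrpl30 with 188, Mrpl14 with 179 and Mrpl52 with 178. Their ranges over libraries overlapped, so neighbours in this order cannot be separated. At the other end stood Mrps30, whose protein sits in the large subunit in spite of its symbol, with a median TPM of 3.23. Next came Mrpl11, which lies at the base of the stalk where translation factors bind, with 5.50, Mrpl1 with 5.93, Mrpl19 with 7.42 and Mrpl47 with 8.12. Mrps30 was listed at 0 reads in 3 libraries. Large subunit members (51) and small subunit members (26) had medians of 50.7 and 39.2 TPM, and their ranges overlapped.

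**Figure D1:**
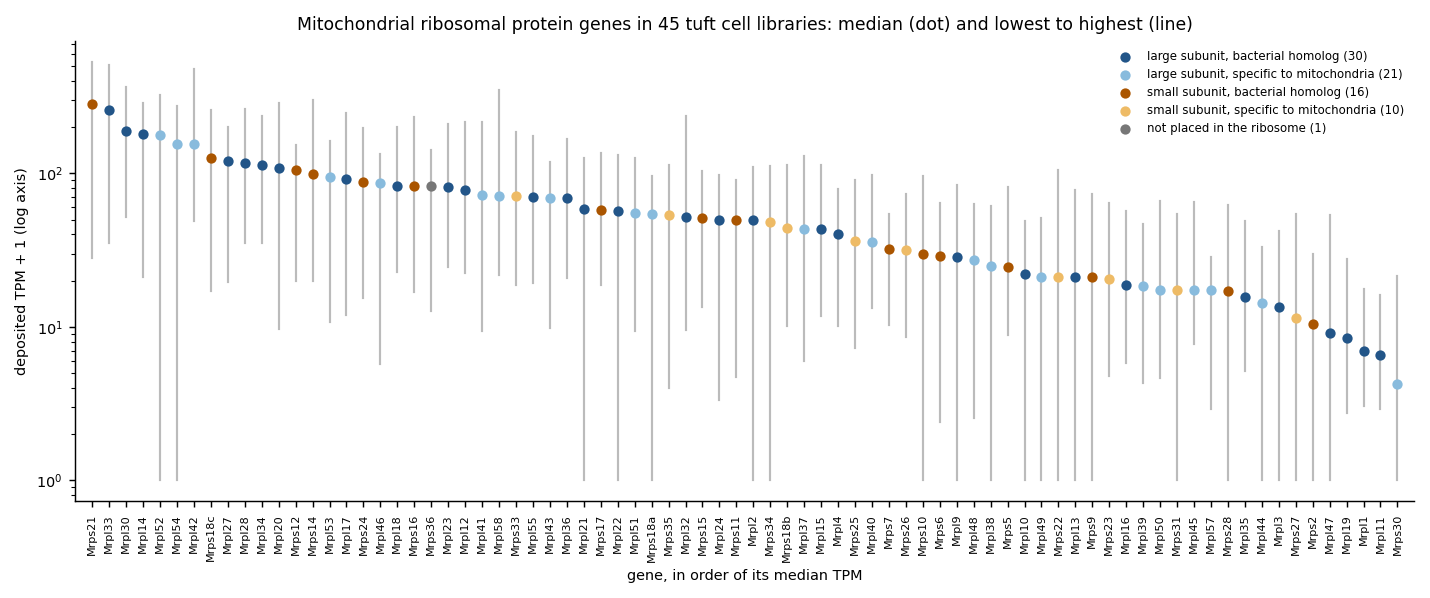
Deposited TPM plus 1 on a log axis for each of the 78 genes, in order of its median over 45 libraries. Dots are medians coloured by subunit and class, and grey lines run from the lowest to the highest library. Medians ran from 282 TPM for Mrps21 to 3.23 TPM for Mrps30, with wide overlap between neighbours.

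In the STF set, most members had higher levels on HFD than on RFD, and 4 of the 78 passed the test, all of them higher. Over all genes tested, 3.07% passed in either direction and 1.83% were higher. At an unadjusted p under 0.05 there were 21 of 78 members (26.9%), all higher, against 18.2% of all genes, 9.86% of them higher and 8.32% lower. The fitted difference was above 0 for 65 of 78 members (83.3%), against 47.3% of all genes. The median log2 fold change was 0.35 over the members and -0.05 over all genes. In bulk samples, a change in the makeup of the sorted cells and a change of RNA per cell cannot be told apart.

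Mrpl3, a large subunit protein close to the peptidyl transferase centre, lies on chromosome 9 from 105053239 to 105079888. In STF it had a lowest, median and highest CPM (reads scaled to the normalized library size) of 3.53, 12.1 and 39.8 on RFD and 10.97, 43.4 and 63.98 on HFD. Of 11 mice on HFD, 10 were above the RFD median and 7 above every mouse on RFD, although the ranges overlapped. Its log2 fold change was 1.26 (adjusted p = 0.0769, SE 0.35, edgeR's quasi-likelihood test, n = 11 each).

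Mrpl12 encodes the stalk protein to which translation factors bind, and lies on chromosome 11 from 120484613 to 120489065. Its CPM was 33.1, 66.1 and 198 on RFD (lowest, median, highest) and 71.1, 136 and 239 on HFD. All 11 HFD mice were above the RFD median, but only 2 were above every RFD mouse because mouse 20 on RFD was high. The log2 fold change was 0.93 (adjusted p = 0.0836, SE 0.27, edgeR). Other genes cover 13.1% of its exon bases, and the library protocol does not mark strand.

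Mrpl16, a core large subunit protein on chromosome 19 from 11770391 to 11774960, was the lowest expressed of these 4 by CPM on HFD. It had 5.43, 13.3 and 27.2 CPM on RFD and 17.6, 29.0 and 51.4 CPM on HFD. All 11 HFD mice lay above the RFD median and 6 above every RFD mouse. The log2 fold change was 1.03 (adjusted p = 0.0866, SE 0.30, edgeR).

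Mrps9, a small subunit protein of bacterial type on chromosome 1 from 42851233 to 42905683, had 16.9, 31.7 and 59.9 CPM on RFD and 27.2, 61.5 and 86.8 CPM on HFD. Here 9 of 11 HFD mice were above the RFD median and 6 above every RFD mouse. Its log2 fold change was 0.82 (adjusted p = 0.0866, SE 0.24, edgeR). All 4 differences had the same sign within each of the 3 number series, with log2 differences from 0.32 to 2.01. The series are parts of the libraries on which these 4 passed, so this is no independent support.

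Among members that missed the threshold in STF, the clearest separation was that of Mrps2, a small subunit protein. It had 0, 16.6 and 21.7 CPM on RFD and 12.8, 33.7 and 45.9 CPM on HFD, and 10 of 11 HFD mice were above every RFD mouse. Its log2 fold change of 1.25 had an SE of 0.41 and an adjusted p of 0.118 (edgeR). Mrpl21 was similar, with 9 of 11 HFD mice above every RFD mouse and a log2 fold change of 0.60 (adjusted p = 0.131, SE 0.21, edgeR). The 5 members with the smallest p in the lower direction were Mrps26, Mrpl14, Mrps25, Mrpl43 and Mrpl46, with log2 fold changes of -0.31, -0.35, -0.26, -0.25 and -0.18 and adjusted p values from 0.438 to 0.741 (edgeR).

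The calls in STF were close to the threshold. Of 15 settings of the processing, Mrpl3, Mrpl12 and Mrpl16 each passed in 8 and Mrps9 in 7. Fitted levels of cell type markers also differed between the diets in this set. Over all the marker lists, 1 marker passed, the stem marker Olfm4 (log2 fold change 2.05, SE 0.54, adjusted p = 0.0766, edgeR), where 3.07% of all genes did. Of the 15 tuft markers, 14 had a fitted difference below 0, with a median log2 fold change of -0.97, and their summed level was 4184 to 28295 CPM on RFD (median 17940) and 389 to 27035 CPM on HFD (median 7538). The 4 Paneth, 4 stem and 4 cycling markers were all above 0, with median log2 fold changes of 2.51, 0.87 and 1.27. The other lists differed in direction. Of 8 enterocyte markers 2 were above 0 (median -0.29), of 6 goblet markers 5 (median 0.16), of 6 enteroendocrine markers 3 (median -0.17) and of 4 T cell markers 0 (median -1.31). Summed Paneth marker levels ranged from 34.4 to 60922 CPM on RFD and from 64.8 to 321334 CPM on HFD, summed stem marker levels from 220 to 1732 and from 168 to 6093 CPM, and summed cycling marker levels from 20.4 to 546 and from 25.1 to 813 CPM. With the tuft marker score as a covariate, no member passed and the median log2 fold change of the members was 0.17. No member passed either when the 6 STF libraries with tuft markers below the others were left out, and the median was then 0.33 in 16 libraries. These 2 settings left 23 and 0 genes called in all.

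In the LTF set no member passed the test by edgeR, where 0.728% of all genes did. At an unadjusted p under 0.05 there were 9 members (11.5%, against 10.3% of all genes), 8 of them higher and 1 lower on HFD, where 4.69% of all genes were higher and 5.57% lower. DESeq2 called 2 members, where it called 2.5% of all genes, and limma-voom 1, where it called 0.328%. The fitted difference was above 0 for 56 of 78 (71.8%, against 47.9%), and the median log2 fold change was 0.28, against -0.03 over all genes. The share of members past the unadjusted threshold in either direction was therefore near the background in this set.

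Mrps14, a protein of the head of the small subunit on chromosome 1 from 160195215 to 160202170, had the smallest p in LTF. It had 43.8, 50.6 and 89.6 CPM on RFD and 57.7, 83.2 and 106 CPM on HFD. All 12 HFD mice lay above the RFD median, and 3 above every RFD mouse. The log2 fold change was 0.54 (adjusted p = 0.174, SE 0.16, edgeR), and it ran from 0.37 to 0.78 as a log2 difference within the 3 number series.

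Mrps28, another small subunit protein, on chromosome 3 from 8802146 to 8923918, had the largest fitted difference of any member in LTF. It had 0, 6.58 and 29.4 CPM on RFD and 13.3, 20.6 and 27.3 CPM on HFD. The HFD mice were all above 10 of the 11 RFD mice, and the other RFD mouse, mouse 1, was above every HFD mouse and was the LTF RFD library with tuft markers below the others. The log2 fold change was 1.38 (adjusted p = 0.181, SE 0.42, edgeR). Mrps28 passed in 6 of 15 settings, with adjusted p values from 0.0160 to 0.998. The value of 0 was LTF RFD mouse 3, and without it the log2 fold change was 1.24 (SE 0.36).

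Next by p in the higher direction were Mrpl50, a large subunit protein found only in mitochondria, with a log2 fold change of 0.80 (SE 0.29), Mrpl35 with 0.57 (SE 0.25) and Mrpl16 with 0.62 (SE 0.28). Their adjusted p values were 0.297, 0.428 and 0.456 (edgeR). Mrpl50 was above the RFD median in 12 of 12 HFD mice, and Mrpl35 and Mrpl16 in 11. In the lower direction Mrpl43, a mitochondria-specific large subunit protein, had 59.1, 91.6 and 115 CPM on RFD and 44.8, 62.9 and 109 CPM on HFD. The fitted log2 difference was -0.39 (adjusted p = 0.448, SE 0.17, edgeR), and 11 of 12 HFD mice were not above the RFD median. Exons of other genes, among them Twnk, cover 33.4% of its exon bases. Mrpl58, which frees stalled mitoribosomes, had a log2 fold change of -0.46 (SE 0.23), and -0.15 (SE 0.15) without LTF RFD mouse 3. Mrpl14, Mrpl30 and Mrpl27 followed with log2 fold changes of -0.28, -0.23 and -0.25.

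**Figure D2:**
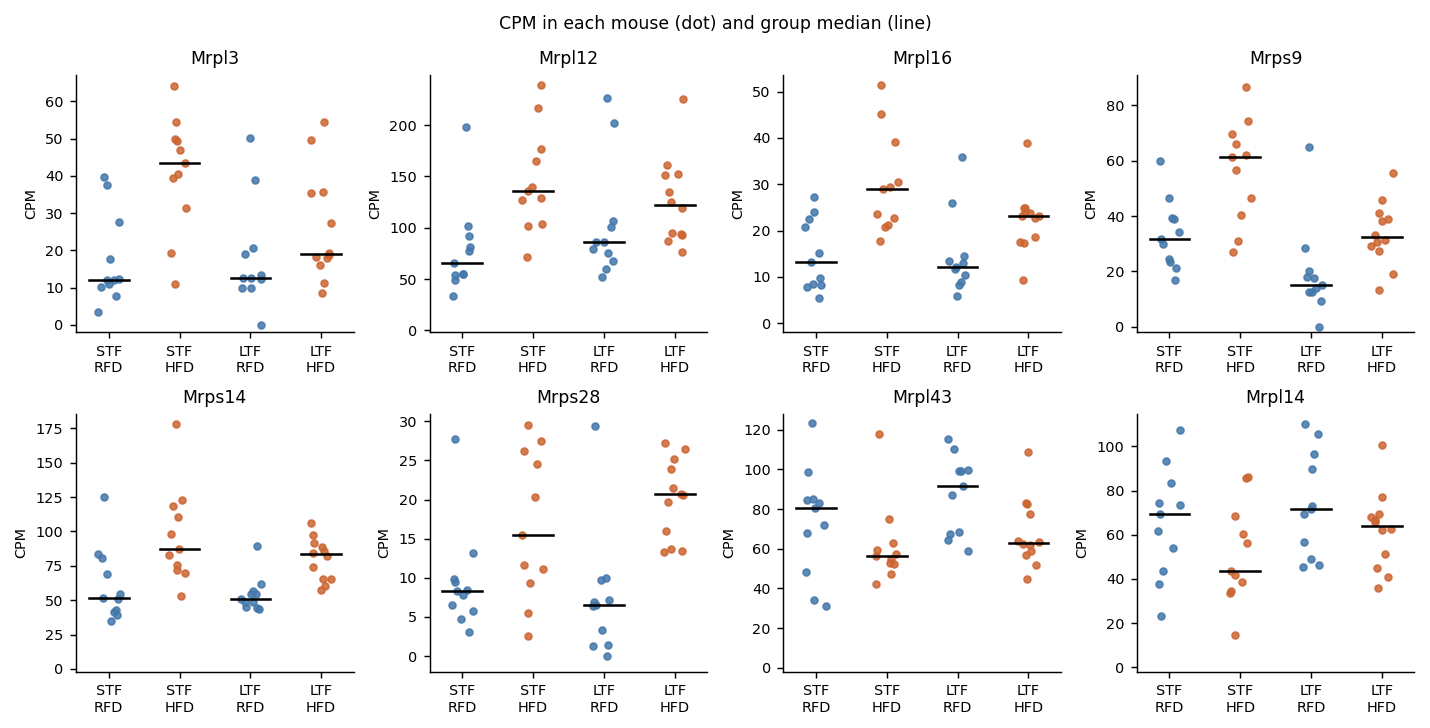
CPM in every mouse for 6 members with higher and 2 with lower fitted levels on HFD, by set and diet (dots are mice, lines are group medians). For Mrps14 in LTF the medians were 50.6 CPM on RFD and 83.2 CPM on HFD, while the ranges of the diets overlapped in every panel.

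Whether the diet difference depended on the set was tested as an interaction over all 45 libraries. No member passed by edgeR, and 1 gene of the 14020 did (0.00713%). At an unadjusted p under 0.05 there was 1 member, Mrpl11, against 3.27% of all genes (1.98% with a higher and 1.29% with a lower fold change in LTF). The fitted interaction was above 0 for 26 of 78 members and for 54.3% of all genes. Its log2 fold change in LTF minus that in STF was -0.82 (SE 0.34): it had 14.7 CPM on RFD and 24.01 on HFD in STF (medians), and 20.1 and 21.6 CPM in LTF. DESeq2 and the other alternatives also called none. A missed threshold does not show that the sets were alike.

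With both sets in 1 fit and the set as a term, 17 of 78 members passed (21.8%), all higher on HFD, against 12% of all genes and 6.11% in the higher direction. The fit reuses the libraries of both sets and is no independent support for either. At an unadjusted p under 0.05 there were 33 members (42.3%, against 23.7%), 32 of them higher, where 12.1% of all genes were higher and 11.6% lower. The median log2 fold change was 0.30, against -0.06 over all genes, and 64 of 78 (82.1%) were above 0, against 46%.

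Among large subunit proteins with a bacterial homolog, 9 of 30 rose in this fit, where 6.11% of all genes did. Besides Mrpl16 (log2 fold change 0.80, SE 0.20, adjusted p = 0.0119, edgeR), Mrpl12 (0.58, SE 0.18, adjusted p = 0.0454) and Mrpl3 (0.85, SE 0.28, adjusted p = 0.0537), they were Mrpl35, Mrpl47, Mrpl23, Mrpl21, Mrpl55 and Mrpl36. These 6 had log2 fold changes from 0.34 for Mrpl55 to 0.76 for Mrpl47. Mrpl47 shares 24.2% of its exon bases with other genes. Mrpl23 has a processed copy, Mrpl23-ps1, and reads may have been split between them during counting. The copy had medians of 1.63 CPM on RFD and 2.67 CPM on HFD in STF, far below the 27.9 and 43.5 CPM of Mrpl23.

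Of the 21 large subunit proteins specific to mitochondria, 3 rose, again against 6.11% of all genes. Mrpl50 had a log2 fold change of 0.80 (adjusted p = 0.0234, SE 0.22, edgeR) and was above the RFD median of its set in 22 of 23 HFD mice. Mrpl37 and Mrpl42 had log2 fold changes of 0.72 (SE 0.22) and 0.60 (SE 0.17). Mrpl42 had 70.6 CPM on RFD and 119 on HFD in STF (medians), and 43.8 and 66.4 CPM in LTF.

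On the small subunit, 4 of 16 proteins with a bacterial homolog and 1 of 10 specific to mitochondria rose, against 6.11% of all genes. Mrps14 had the smallest adjusted p of all members (log2 fold change 0.61, SE 0.14, adjusted p = 0.00552, edgeR), and 23 of 23 HFD mice were above the RFD median of their set. Mrps28 had the largest log2 fold change, 1.10 (adjusted p = 0.0202, SE 0.30), followed in this class by Mrps9 with 0.78 (SE 0.22) and Mrps10 with 0.73 (SE 0.26). Mrps27, a mitochondria-specific protein, had 18.2 CPM on RFD and 45.5 on HFD in STF, and 7.67 and 21.8 CPM in LTF (medians). Its log2 fold change was 0.85 (adjusted p = 0.0909, SE 0.32), and 24.2% of its exon bases are shared with other genes. Mrps36, a protein now placed in a dehydrogenase complex and not in the ribosome, had a log2 fold change of 0.27 and did not pass.

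No member fell in this fit by edgeR, where 5.84% of all genes did. In the lower direction 1 member had an unadjusted p under 0.05, Mrpl43, against 11.6% of all genes. It had a log2 fold change of -0.32 (adjusted p = 0.131, SE 0.13, edgeR), and 2 of 23 HFD mice were above the RFD median of their set. It passed as lower under 2 alternatives, DESeq2 and upper-quartile normalization. The number of members called was 6 with the tuft marker covariate (4.62% of all genes were called), 22 with the 8 libraries of low tuft markers left out (8.85%) and 25 without LTF RFD mouse 3 (17%). With the covariate, the 6 were all among the 17, and Mrps14 had a log2 fold change of 0.50 (SE 0.12).

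**Figure D3:**
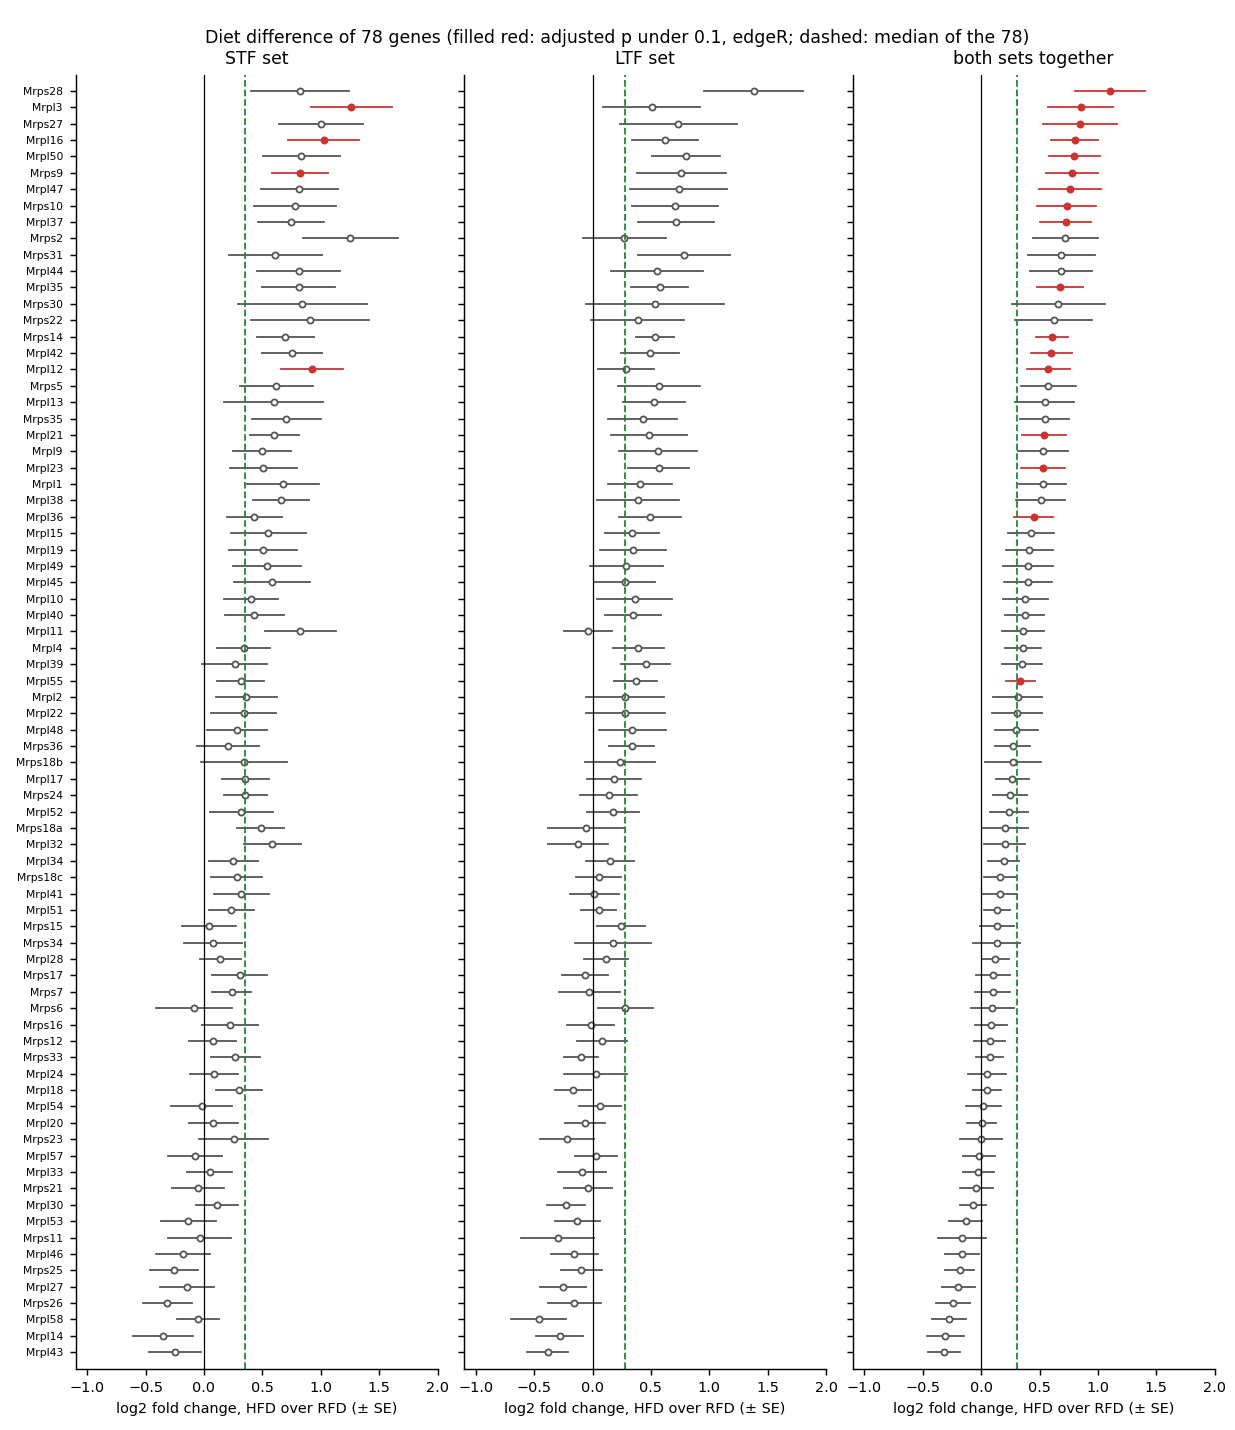
Log2 fold change of HFD over RFD with its SE for each of the 78 genes in STF, in LTF and in both sets together, ordered by the last. Filled red points passed at an adjusted p under 0.1 (4, 0 and 17 genes), and the dashed line is the median of the 78 genes (0.35, 0.28 and 0.30).

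The size of the fitted difference varied with the level of a member. Split at the middle of the mean TPM over all libraries, the 39 members with lower levels had median log2 fold changes of 0.60 in STF and 0.39 in LTF, and the 39 with higher levels 0.27 and 0.05. Among all protein-coding genes in the same TPM ranges the medians were 0.05 and 0.02 for the lower and 0.05 and 0.03 for the upper range. Thus Mrps21, Mrpl33 and Mrpl30, the 3 members with the highest levels, had log2 fold changes of -0.05, 0.05 and 0.11 in STF and -0.04, -0.09 and -0.23 in LTF. At the low end, Mrps30, Mrpl1, Mrpl19 and Mrpl47 had 0.84, 0.67, 0.51 and 0.81 in STF and 0.53, 0.40, 0.35 and 0.74 in LTF, whereas Mrpl11 had 0.83 and -0.04.

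Coding length went along with level. The 39 members with coding lengths of 588 to 1326 bases had median log2 fold changes of 0.55 in STF and 0.36 in LTF, and the 39 with 261 to 576 bases 0.27 and 0.05. Of the 39 members with lower levels, 28 were among the longer and 11 among the shorter, and the reverse held for those with higher levels, so the part of length and level was not separated. These splits share members and libraries and carry no test. By subunit the medians were closer to each other, with 0.40 in STF and 0.29 in LTF over the 51 large subunit members and 0.29 and 0.20 over the 26 small subunit members.

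**Figure D4:**
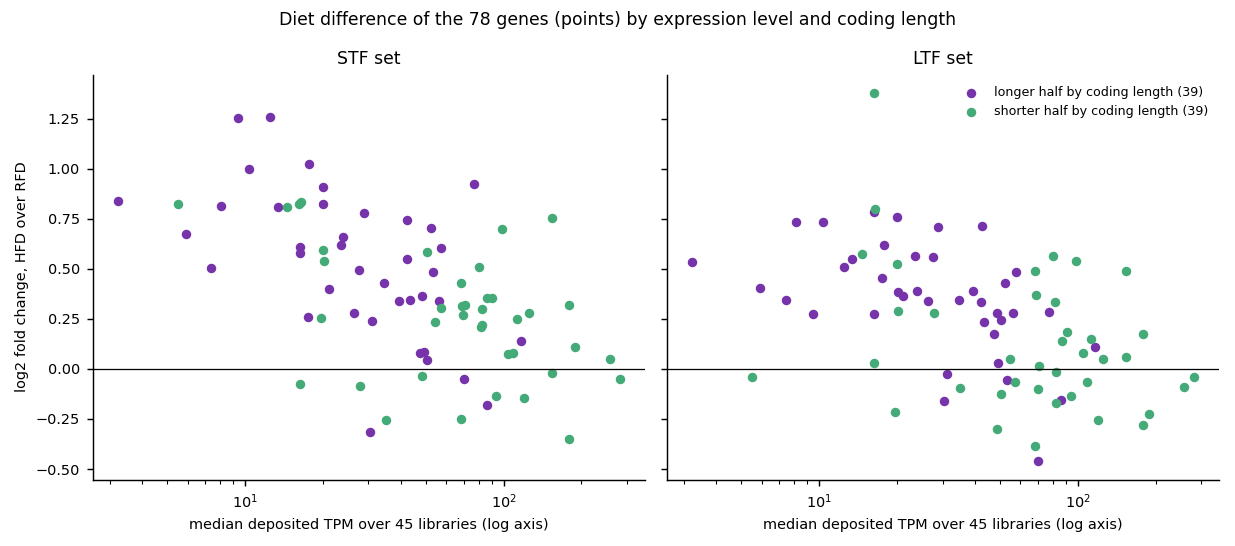
Log2 fold change of HFD over RFD for each of the 78 genes against its median deposited TPM (log axis) in STF and LTF, coloured by longer (588 to 1326 bases) or shorter (261 to 576 bases) coding length. The 39 genes with lower mean TPM had medians of 0.60 and 0.39, and the other 39 of 0.27 and 0.05.

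Seen by mouse, the summed level of the 78 members was 2536, 3117 and 4940 CPM in STF on RFD (lowest, median, highest) and 3028, 4120 and 5684 CPM on HFD, where 10 of 11 mice were above the RFD median. In LTF it was 2587, 3055 and 4588 CPM on RFD and 2749, 3558 and 4555 CPM on HFD, with 9 of 12 mice above the RFD median. The diets overlapped in both sets. Summed as deposited TPM, the STF levels were 1879, 4292 and 6075 TPM on RFD and 1196, 4897 and 8162 TPM on HFD, where 6 of 11 HFD mice were above the RFD median. In LTF the sums were 4436, 5043 and 6630 TPM on RFD and 3385, 5683 and 7657 TPM on HFD, with 9 of 12 HFD mice above the RFD median. Relative to the RFD median of the set, the median member had a log2 level of 0.40 on HFD and -0.05 on RFD in STF (medians over mice), and 0.31 and 0.00 in LTF.

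Within the number series, 58, 59 and 56 of 78 members had a higher mean log2 level on HFD in STF, in the order of series given above, and 63, 58 and 60 in LTF. All 3 series were above 0 for 36 members in STF (46.2%, against 19.6% of all genes) and for 44 in LTF (56.4%, against 21.3%). The members' median difference was 0.29, 0.33 and 0.32 in the 3 series of STF, and 0.40, 0.20 and 0.31 in those of LTF. The corresponding medians over all genes were 0.11, 0.03 and -0.09, and 0.26, -0.04 and -0.09.

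The tuft marker score, which is the mean log2 level of tuft markers minus that of the others, had medians of 2.82 on RFD and 1.17 on HFD in STF. In LTF they were 3.24 and 2.97, and the 15 tuft markers had a median log2 fold change of -0.39. Of the other marker lists in LTF, all 6 enteroendocrine markers were below 0, with a median log2 fold change of -2.46. Of these 6, Cck and Gcg fell, where 0.292% of all genes did. The summed level of the 6 was 126 to 986 CPM on RFD and 72.7 to 316 CPM on HFD. All 4 T cell markers were also below 0 (median -1.47). All 6 goblet, 4 Paneth, 4 stem and 4 cycling markers were above 0 with medians of 0.75, 1.27, 0.65 and 0.65, and the 8 enterocyte markers had a median of 0.05. All 8 mice with a score below 0 had a median member level above the RFD median of their set, by 0.34 to 0.73 on the log2 scale. The 2 of them on RFD, STF RFD mouse 20 and LTF RFD mouse 1, had the highest member level of their groups. LTF RFD mouse 3, the lowest point, had a score of 2.71. With the score as a covariate the LTF median log2 fold change was 0.20. Beyond these values, the part of other cell types in the members' difference was not tested.

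**Figure D5:**
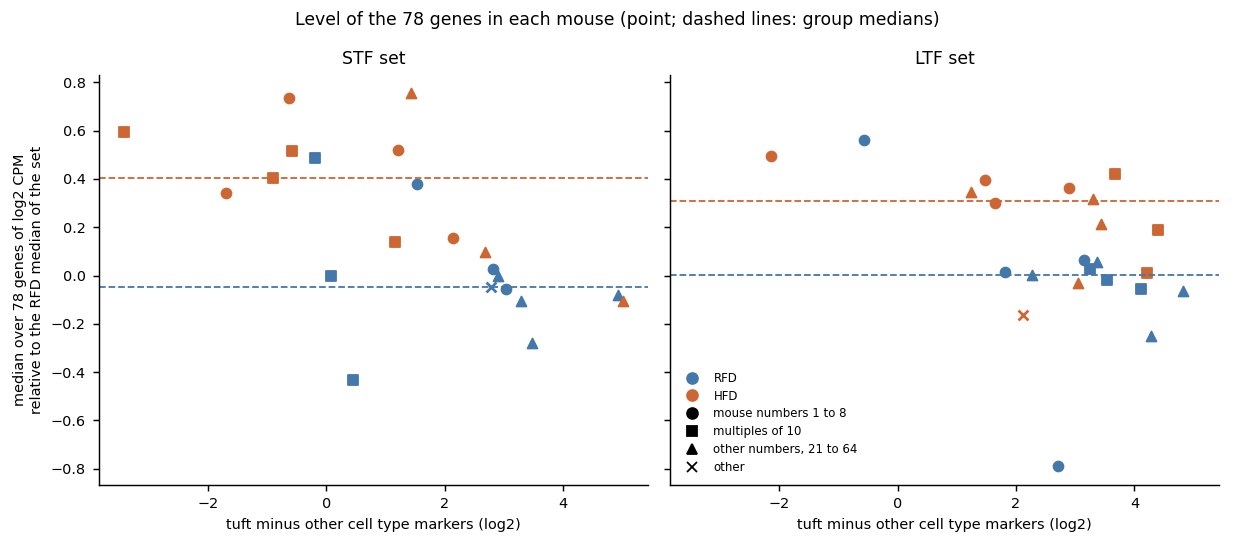
Median over the 78 genes of the log2 CPM relative to the RFD median of the set, in each mouse, against the tuft marker score (log2). Colours are diets, shapes are number series and dashed lines are group medians (-0.05 and 0.40 in STF, 0.00 and 0.31 in LTF).

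Other genes of mitochondrial translation were counted from lists. Over all genes tested, 6.11% rose in both sets together. Of 5 structural proteins with other symbols, 1 rose in both sets together: Ptcd3, a small subunit protein at the mRNA entry, with a log2 fold change of 0.93 (adjusted p = 0.0537, SE 0.30, edgeR). Dap3, a GTP-binding small subunit protein, had 0.59 (SE 0.23), Chchd1 0.17, Gadd45gip1 0.15 and Aurkaip1 -0.24, and none of them passed. In 22 assembly and ribosomal RNA factors, 1 rose, the RNA-binding Fastkd2 (log2 fold change 1.23, SE 0.37, adjusted p = 0.0376). Among 13 translation factors it was Tufm, the mitochondrial elongation factor Tu, with 0.57 (adjusted p = 0.0283, SE 0.16) in both sets together and medians of 62.2 CPM on RFD and 113 on HFD in LTF.

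Of 7 genes for transcription of mitochondrial DNA and handling of its RNA, 2 rose in STF and in both sets together. Over all genes tested, 1.83% rose and 1.24% fell in STF, and 6.11% rose and 5.84% fell in both sets together. Tfb2m, which starts transcription, had 9.47 CPM on RFD and 22.3 on HFD in STF (medians), and 11 of 11 HFD mice were above the RFD median (log2 fold change 1.28, SE 0.37, adjusted p = 0.0866, edgeR). Lrpprc, which stabilizes mitochondrial mRNAs, had 34.9 and 81.3 CPM (log2 fold change 0.96, SE 0.28, adjusted p = 0.0866). Among 20 mitochondrial tRNA synthetases none rose and 1 fell, Lars2, with 1022 CPM on RFD and 257 on HFD in STF (log2 fold change -1.82, SE 0.33, adjusted p = 0.0187). The other 19 had a median log2 fold change of 0.44 in STF. Lars2 and the transcript AY036118 together took a large share of reads, which also differed between the diets. Going by the CPM of Lars2 above, most of this share was AY036118. In STF the share was 4.24% to 16.7% on RFD (median 12.0%) and 2.53% to 10.9% on HFD (median 4.66%), with 0 of 11 HFD mice above the RFD median, and in LTF the medians were 9.02% and 5.60%. With both transcripts left out, 4 members were called in STF, 0 in LTF and 22 in both sets together. The shares of all genes called were 2.92%, 0.763% and 11.4%.

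The RNAs encoded by the mitochondrial genome itself were counted too. None of the 13 mitochondrial mRNAs and 2 ribosomal RNAs passed by edgeR in any of the 3 diet comparisons. Over all genes tested, 3.07% passed in STF, 0.728% in LTF and 12% in both sets together, so few calls would fall among 15 genes. At an unadjusted p under 0.05 there was 1 of 15 in each, lower on HFD in STF and in both sets together, and higher in LTF. The shares of all genes were 18.2% in STF, 10.3% in LTF and 23.7% in both sets together. The mRNAs had a median log2 fold change of -0.30 in STF, where 1 of 13 was above 0, and of 0.33 in LTF, where 11 were. In STF the share of reads from mitochondrial DNA ranged from 7.10% to 41.7% on RFD and from 4.71% to 37.1% on HFD.

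None of 10 nuclear regulators of mitochondrial genes passed by edgeR. Over all genes tested, 3.07% passed in STF, 0.728% in LTF and 12% in both sets together, so few calls would fall among 10 genes. Gabpa had log2 fold changes of 0.79 (SE 0.45) in STF and 0.72 (SE 0.38) in LTF, Nrf1 0.40 and -0.10, Yy1 0.08 and 0.40, and Ppargc1a -0.93 (SE 0.58) and -0.53 (SE 0.35). For Ppargc1a, 11 of 11 HFD mice were below the RFD median in STF, 3 of them with no read, and 9 of 12 in LTF. The paper, with its own test on counts weighted by cell type, reported Ppargc1a as strongly lower after 9 weeks of HFD. The regulator closest to the threshold was Myc in STF, with medians of 22.5 CPM on RFD and 69.9 on HFD (log2 fold change 1.47, SE 0.45, adjusted p = 0.101, edgeR). Of the 16 called members with a promoter, 9 (56.2%) held at least 1 of the 3 strings, and of the other 53 members 31 (58.5%). YY1 matches were present in 5 of the 16 (Mrpl35, Mrpl36, Mrpl37, Mrpl42 and Mrps27) and in 3 of the 53. GABPA matches were present in 3 of the 16 and 22 of the 53, and NRF1 matches in 2 of the 16 and 11 of the 53. These counts were looked at after the calls were known and carry no test.

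The cytosolic ribosomal protein genes, which encode the other ribosome of the cell, are given for comparison. Of 75, 38 rose in STF, 0 in LTF and 60 in both sets together by edgeR, with median log2 fold changes of 0.71, 0.39 and 0.53. Over all genes tested, 1.83%, 0.435% and 6.11% rose. In LTF, 31 of the 75 had an unadjusted p under 0.05, against 10.3% of all genes. The family shares all libraries with the members, and the difference between the families was not tested.

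Several members start next to a gene on the opposite strand. In 17 such pairs with a tested partner, 15 members and 9 partners had a fitted difference above 0 in STF, and the same numbers in LTF. By edgeR no partner passed in either set, and 1 passed in both sets together, Psma2, the partner of Mrpl32. Over all genes tested, 12% passed in that fit. For members that rose, the partners differed: Mrps27 and Ptcd2 had log2 fold changes of 0.85 and 0.74 in both sets together, Mrpl37 and Cyb5rl 0.72 and 0.91, and Mrpl50 and Zfp189 0.80 and -0.28. For 18 of the 78 members, other genes cover more than 10% of the exon bases. Reads that lie wholly within shared bases cannot be told apart, whichever strand the other gene is on.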

How the data were processed

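Tuft cell RNA of 45 mice was amplified by Smart-seq2, and the authors removed adapters with Cutadapt (1.15), aligned reads with STAR (2.6.0) and estimated counts per gene with RSEM, per the labels on GRCm38. The deposited estimated counts are not normalized, and 8.79% of those above 0 were not whole. They were rounded. The TPM values deposited by the authors are scaled by transcript length and library size, and were used for levels. Deposited FPKM values were not used, nor were 24 table columns without a labelled sample. The authors' SAM-seq test, with counts weighted by cell type, was not repeated.

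Symbols came from GENCODE M21. Genes with more than 5 reads in at least 6 libraries were tested (14020). Diets were compared with edgeR (4.0.16) in R (4.3.3), with TMM normalization, the quasi-likelihood test and Benjamini-Hochberg adjustment over all genes tested, at an adjusted p under 0.1, within each set, as an interaction and in both sets together. CPM are TMM-normalized. Standard errors are Wald errors at the fitted means. Each library is 1 mouse, and total reads ranged from 189340 to 4690213, so genes of few reads are less precise. limma (3.58.1), DESeq2 (1.42.0) and other settings were alternatives, with log2(TPM + 1) in 1 of them. The fit was tried on simulated data with planted changes larger than any fitted for the members. It therefore does not show how changes of the members' size are recovered. Tables and plots used Python (3.11.15), pandas (2.3.3) and matplotlib (3.10.9).

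Named are the members that passed in any comparison, the 5 with the smallest p in each direction and set, and the 5 with the highest and lowest median TPM. From other lists, genes that passed and the 5 structural proteins are named. Mrps36, the regulators and the promoter partners named were picked with their values known. The members and lists were chosen with earlier results of these data known. Cell type lists were tuft, enterocyte, goblet, Paneth, enteroendocrine, stem, T cell and cycling markers.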

Additional observations from a re-analysis of the deposited data

How the results depend on the processing

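No paired analysis was possible because the diets share no mouse number within a set. The 2 alternatives that left out LTF RFD mouse 3 or the libraries of low tuft markers were chosen after seeing the data. The members' median log2 fold change stayed above 0 in all 14 alternatives of each diet comparison, from 0.17 to 0.38 in STF, 0.20 to 0.33 in LTF and 0.20 to 0.37 in both sets together. The share of all genes called under each setting is given in parentheses. In STF, 4 members were called (3.07%), 15 with DESeq2 (10.9%), 13 with limma-voom (11.6%) and 0 with limma on log2(TPM + 1) (0.0642%), no filter on low counts (0.581%), the tuft marker covariate (0.164%), libraries under 500000 reads left out (STF RFD mouse 40 and STF HFD mouse 50; 1.81%), low tuft libraries left out (0%), or series 1 (0%) or series 3 (1.23%) left out. In LTF, where none was called, DESeq2 gave 2 (2.5%), limma-voom 1 (0.328%), log2(TPM + 1) 1 (0.364%), the covariate 1 (1.3%), low tuft libraries left out 3 (2.27%) and series 1 left out 8 (3.67%). In both sets together, 17 were called (12%), 29 with DESeq2 (20%), 6 with the covariate (4.62%), and 8, 7 and 0 without series 1, 2 and 3 (4.37%, 6.05% and 1.41%). The interaction called 0 members in every alternative, and its median over the members turned from -0.08 to 0.04 with log2(TPM + 1) and 0.06 with the covariate. For fewer samples the calls rest on less data, and otherwise the cause was not tested. Over all 78 members, those above 0 in STF went from 65 to 58 with log2(TPM + 1), so members not named here also turned. Among the named members, signs turned without a call for Mrpl30 in STF with log2(TPM + 1) (-0.11), without series 1 (-0.0086), with the covariate (-0.049) and without low tuft libraries (-0.020); Mrpl27 in STF without series 3 (0.023) and with the covariate (0.089); Mrpl43 in STF without series 1 (0.0061); and Mrps25 in LTF with log2(TPM + 1) (0.038) and without series 3 (0.043). No LTF library had under 500000 reads, so that alternative was not run there. Depth limits members of few reads, such as Mrps30 with a median of 9 per library.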
